A study of Mus musculus with 6 samples.

Results

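The 9 genes described here are 3 embryonic globins (*Hba-x*, *Hbb-bh1* and *Hbb-y*), 2 adult globins (*Hba-a1* and *Hbb-bt*) and 4 further genes of red cells (*Slc4a1*, *Alas2*, *Car2* and *Epb42*). They were chosen by name and not by a measured value, though with earlier results of these data known. Each was found by matching its symbol to a gene identifier of the count table. All 9 were among the 28777 genes listed, and all 9 had more than 5 reads over the 6 libraries, as had 28157 genes in all, which was the condition for being tested. None of the 9 passed the test between the groups by edgeR at an adjusted p of at most 0.05, as 0.0213% of all genes tested did, and 8 of the 9 had a fold change below 0 under the mutant label, as had 48.8% of all genes. The 3 embryonic globins were lower in every library labelled mutant than in every library labelled wildtype, a pattern seen in 8.94% of all genes. For the 2 adult globins the groups overlapped, and 1 of the wildtype libraries held less of them than any mutant library.

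The genes were measured by bulk RNA-Seq of the cardiac outflow tract (OFT), the end of the embryonic heart tube from which the aorta and the pulmonary artery arise, at embryonic day E13.5. Of the 6 mouse libraries, 3 are labelled *Notch1* heterozygous and *Nos3* null (Notch1+/-; Nos3-/-) and 3 are labelled wildtype, and each was made from 3 pooled OFTs. Both knockouts are conventional alleles that all cells of the embryo carry, the strains were kept on a C57/BL6J background, the wildtype embryos were littermates, and no treatment was given to either group. The study compared the groups to find genes changed in the mutant OFT, and used these to prioritize variants of patients with congenital heart disease. The malformations were seen at later stages, and the paper proposes that some of them come from earlier abnormal development. The libraries are called wildtype 1, wildtype B and wildtype C, and mutant 1, 2 and 3, because for the last 2 wildtype libraries the labels give opposite replicate numbers.

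Hemoglobin is built from α-like and β-like globin chains, and each chain is encoded by a cluster of genes that are used one after the other in development. The first red cells of the mouse embryo, called primitive, arise in the yolk sac, enter the blood while still nucleated, and carry the embryonic chains encoded by *Hba-x* (ζ), *Hbb-bh1* (βh1) and *Hbb-y* (εy). Definitive red cells are made later, at midgestation mainly in the fetal liver, lose their nucleus, and carry the adult chains of the Hba-a and Hbb-b genes. Primitive red cells also take up adult globin genes as they mature, so the 2 sets of genes are not exclusive to 1 kind of cell.

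The labels were first checked with the 2 targeted genes, of which 1 went against its label. *Nos3*, the endothelial nitric oxide synthase, was at 31.8, 47.2 and 48.1 CPM (counts normalised for library size, with the TMM scaling of edgeR) in wildtype 1, B and C, and at 22.1, 21.98 and 20.4 CPM in mutant 1, 2 and 3. It was lower in every mutant library, but its log2 fold change of −0.98 (SE 0.15) did not pass the test (edgeR's quasi-likelihood test, Benjamini-Hochberg adjusted p = 0.128). By DESeq2's Wald test it did (adjusted p = 9.42e-06), and over all alternative settings its adjusted p ranged up to 0.576. *Notch1*, a receptor of cell-to-cell signalling, was at 74.3, 88.2 and 83.6 CPM in the wildtype libraries and at 155, 161 and 139 CPM in the mutant libraries. It was higher under the label of its own heterozygous loss, with a log2 fold change of 0.89 (SE 0.10, adjusted p = 0.0313 by edgeR). Which exons the alleles lack is not given in the sources used here, and reads from the rest of either gene would not show its loss. Every direction below therefore refers to the libraries as labelled. Depth was 34729103 to 44387490 counts per library, and the p-values measure the spread between these pools of OFTs.

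Levels of different genes were compared as CPM per kilobase of exon. In the wildtype libraries the order was *Hba-a1* at 3015 ± 1039 (SD, n = 3), *Hbb-y* at 2127 ± 408, *Hbb-bt* at 1534 ± 787, *Hba-x* at 115 ± 8.12, *Hbb-bh1* at 23.6 ± 1.91, *Alas2* at 9.61 ± 3.09, *Car2* at 4.77 ± 1.24, *Slc4a1* at 3.90 ± 0.846 and *Epb42* at 0.205 ± 0.0606 CPM per kilobase. In the mutant libraries the order was the same, from *Hba-a1* at 2046 ± 27.1, *Hbb-y* at 1445 ± 159 and *Hbb-bt* at 1049.9 ± 54.9 down to *Car2* at 2.98 ± 0.350, *Slc4a1* at 2.20 ± 0.259 and *Epb42* at 0.233 ± 0.0590 CPM per kilobase (SD, n = 3). Under the wildtype label the neighbours *Hba-a1* and *Hbb-y*, *Hbb-y* and *Hbb-bt*, and *Car2* and *Slc4a1* were closer to each other than the larger of their SDs, so their order is within the spread there. The 9 genes together took between 0.319% and 0.614% of all counts of a library. *Hba-x* and *Hbb-bh1* lay far below *Hbb-y*, although all 3 encode embryonic chains, and the genes that are not globins lay lowest.

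The plot of the levels of each gene by library shows 2 patterns. In the first, seen for *Hba-x*, *Hbb-bh1*, *Hbb-y*, *Slc4a1* and *Car2*, every mutant library lay below every wildtype library. In the second, seen for *Hba-a1*, *Hbb-bt* and *Alas2*, wildtype B and wildtype C stood high and wildtype 1 stood with the mutant libraries or below them. *Epb42* followed neither.

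**Figure D1:**
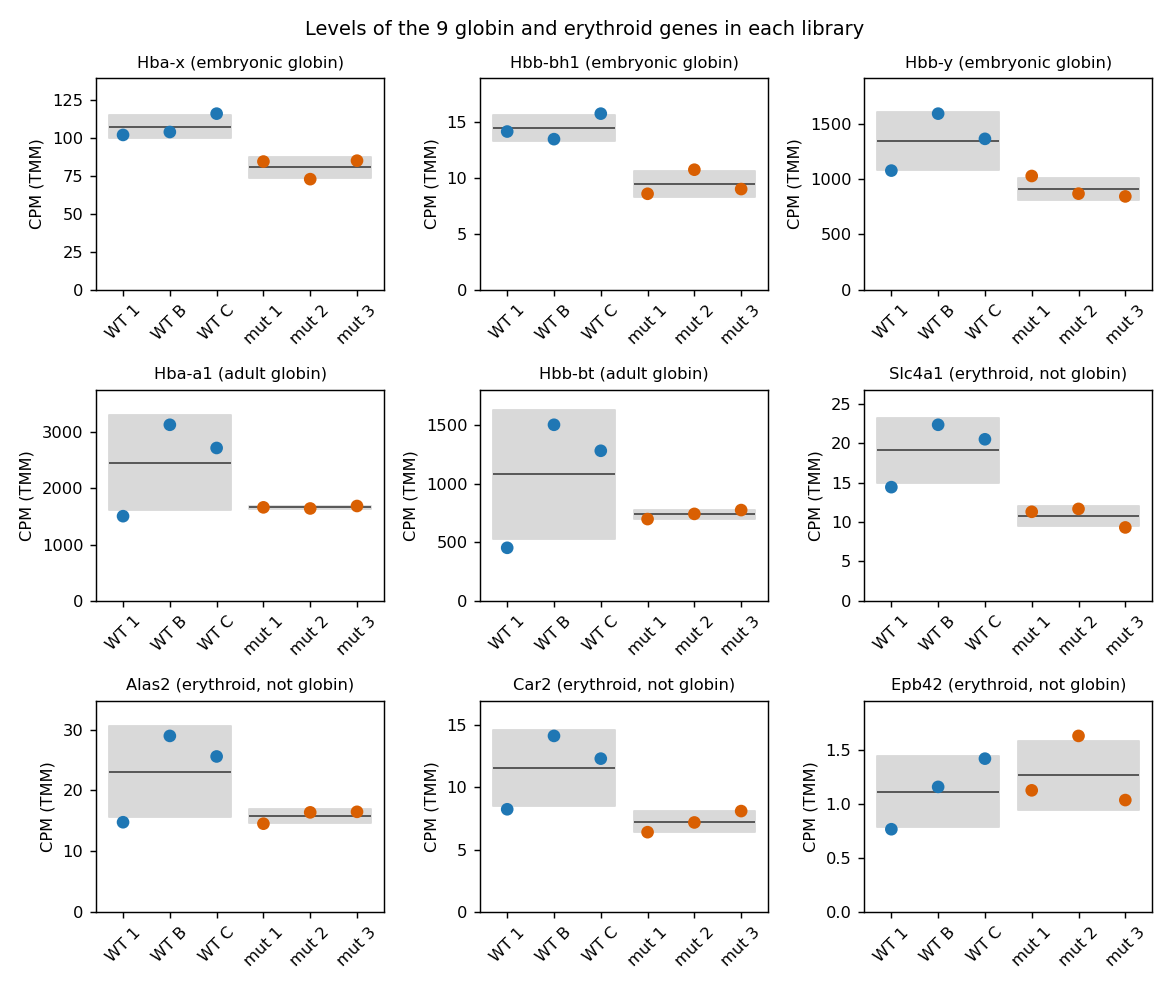
Level of each of the 9 genes in CPM with TMM scaling (vertical axes, linear from 0) in the 3 libraries labelled wildtype (blue) and the 3 labelled mutant (orange), with the group mean as a line and the SD as a grey band. The mutant points lie below all wildtype points for *Hba-x*, *Hbb-bh1*, *Hbb-y*, *Slc4a1* and *Car2*, and between the wildtype points for *Hbb-bt*, where wildtype 1 is at 453 CPM and wildtype B at 1502 CPM.

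The embryonic α-like globin *Hba-x* (gene ENSMUSG00000055609, mm10 chr11:32276400-32278116, plus strand) was at 102, 104 and 116 CPM in wildtype 1, B and C and at 84.5, 72.9 and 85.1 CPM in mutant 1, 2 and 3. The groups did not overlap, and wildtype 1 lay with wildtype B. Its log2 fold change was −0.41 (SE 0.10), with an unadjusted p of 0.00221 and an adjusted p of 0.185 in edgeR's quasi-likelihood test.

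*Hbb-bh1* (ENSMUSG00000052217, mm10 chr7:103841637-103843164, minus strand), which encodes the βh1 chain, was at 14.2, 13.49 and 15.8 CPM under the wildtype label and at 8.60, 10.8 and 9.02 CPM under the mutant label. The wildtype libraries lay close together and all above the mutant ones, and wildtype 1 was not the lowest of them. The log2 fold change was −0.61 (SE 0.13, unadjusted p = 0.000825, adjusted p = 0.173 by edgeR).

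*Hbb-y* (ENSMUSG00000052187, mm10 chr7:103851749-103853216, minus strand), which encodes the εy chain, was by far the most abundant embryonic globin. It was at 1078, 1594 and 1366 CPM in wildtype 1, B and C and at 1029.8, 869.8 and 845 CPM in mutant 1, 2 and 3. Here the groups only just did not overlap, since wildtype 1 and mutant 1 were nearly equal. Its log2 fold change was −0.56 (SE 0.15, unadjusted p = 0.00348, adjusted p = 0.194 by edgeR).

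Among the adult globins, *Hba-a1* (ENSMUSG00000069919, mm10 chr11:32283511-32284465, plus strand), one of the adjacent pair of adult α-globin genes, was at 1503, 3127 and 2715 CPM in the wildtype libraries and at 1660.1, 1640.3 and 1684 CPM in the mutant libraries. Wildtype 1 was the lowest of all 6 libraries, whereas wildtype B and C were the highest. The mutant libraries lay close together and the wildtype libraries did not, at 1662 ± 22.01 against 2448 ± 844 CPM (SD, n = 3). The log2 fold change was −0.56 (SE 0.22, unadjusted p = 0.0256, adjusted p = 0.262 by edgeR), the same size as that of *Hbb-y* with a larger error.

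*Hbb-bt* (ENSMUSG00000073940, mm10 chr7:103812524-103813996, minus strand), one of the pair of adult β-globin genes, varied most of all 9. It was at 453, 1502 and 1281 CPM in wildtype 1, B and C and at 698, 742 and 775 CPM in the mutant libraries, and its highest library was 3.32-fold above its lowest. Both of these extremes carried the wildtype label. For the embryonic globins the same fold between the highest and the lowest library was 1.59 (*Hba-x*), 1.84 (*Hbb-bh1*) and 1.89 (*Hbb-y*). The log2 fold change of *Hbb-bt* was −0.55 (SE 0.32), with an unadjusted p of 0.121 and an adjusted p of 0.427 by edgeR.

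Reads of the adult globins cannot be given to 1 copy with certainty. Of the distinct 50-base stretches of the transcripts, 50 bases being what was read from each end, *Hba-a1* shared 72.3% with its neighbour *Hba-a2* and *Hbb-bt* shared 58.3% with its neighbour *Hbb-bs*, whereas the other 7 genes shared 0 with another annotated gene. *Hba-a2* was at 1624, 3371 and 2903 CPM under the wildtype label and 1770.3, 1754 and 1803 CPM under the mutant label. *Hbb-bs* was at 615, 2148 and 1797 CPM and at 953, 1056 and 1097 CPM. Both partners followed the pattern of their pair, with log2 fold changes of −0.57 (SE 0.22, adjusted p = 0.254 by edgeR) and −0.55 (SE 0.34, adjusted p = 0.437). The values of the adult α-globins and of the adult β-globins are thus better read as those of the pairs than of the single copies.

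The sequences just before the start of 4 globin genes are shown because these genes divide into the 2 patterns, and a promoter is the stretch where transcription factors bind to start a gene. They are the 120 bases before the start that RefSeq gives on GRCm38.p6, 5′ to 3′ on the strand of the gene, at chr11:32276480-32276599 (plus) for *Hba-x*, chr11:32283552-32283671 (plus) for *Hba-a1*, chr7:103853208-103853327 (minus) for *Hbb-y* and chr7:103813924-103814043 (minus) for *Hbb-bt*. Capitals mark matches on either strand to CACCC (read by KLF factors, among them the red cell factor KLF1), CCAAT (a general promoter box), GATAA (read by GATA factors) and TATAA (the TATA box). The first 2 are the embryonic genes and the last 2 the adult genes.
Hba-x: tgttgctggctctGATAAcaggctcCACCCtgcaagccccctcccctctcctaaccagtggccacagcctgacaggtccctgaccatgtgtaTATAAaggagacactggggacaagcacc
Hbb-y: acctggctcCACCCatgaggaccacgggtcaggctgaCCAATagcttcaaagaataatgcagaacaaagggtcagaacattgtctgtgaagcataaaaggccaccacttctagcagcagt
Hba-a1: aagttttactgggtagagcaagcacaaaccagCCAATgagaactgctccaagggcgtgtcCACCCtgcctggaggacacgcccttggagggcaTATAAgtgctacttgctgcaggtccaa
Hbb-bt: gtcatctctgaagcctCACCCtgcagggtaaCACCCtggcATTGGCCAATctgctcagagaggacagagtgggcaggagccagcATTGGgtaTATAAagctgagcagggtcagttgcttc

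Each of the 4 stretches held CACCC, once in *Hba-x*, *Hbb-y* and *Hba-a1* and 2 times in *Hbb-bt*, where the opposite-strand and forward forms of CCAAT also stand side by side. *Hba-x* held no CCAAT in this window and *Hbb-y* no TATAA, and no matches overlapped. In the 250 bases before the start, a GATAA stood 107 bases upstream in *Hba-x*, 162 in *Hbb-y*, 182 in *Hba-a1* and 204 in *Hbb-bt*. Matches of this kind are common, since of 32851 RefSeq promoters 52.01% held CACCC, 33.85% CCAAT, 22.58% GATAA and 22.78% TATAA in the same window. They describe the letters only. A promoter was found for 6 of the 9 genes, and the gene models of GENCODE start farther upstream than those of RefSeq for these 4.

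The ratio of embryonic to adult globin compares the 2 sets within a library and does not depend on the library size. As the log2 of the summed counts per kilobase of the 3 embryonic genes over the 2 adult genes, it was −0.44, −1.18 and −1.16 in wildtype 1, B and C and −0.81, −1.07 and −1.14 in mutant 1, 2 and 3. Adult transcripts outnumbered embryonic ones in all 6 libraries, by the least in wildtype 1. The group means were −0.93 ± 0.42 and −1.01 ± 0.17 (SD, n = 3), so their difference of −0.08 was far within the spread, and the range over the 6 libraries was 0.73. Without wildtype 1 the difference was 0.16 and without wildtype B and C it was −0.56. The ratio so far leaves out the adult copies *Hba-a2* and *Hbb-bs*. With both added to the adult genes it was −1.64, −2.38 and −2.36 in wildtype 1, B and C. In mutant 1, 2 and 3 it was then −2.0, −2.27 and −2.34. The excess of adult transcripts was thus larger in every library, and the difference between the group means was again −0.08. No test was made of these ratios, which were formed from chosen genes.

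Pairs of genes within 1 cluster showed where the libraries parted. In the β cluster, *Hbb-y* per kilobase was 2.65-fold above *Hbb-bt* in wildtype 1, against 1.18-fold in wildtype B and in wildtype C. In mutant 1, 2 and 3 the values were 1.64-, 1.30- and 1.21-fold. The other adult β copy, *Hbb-bs*, is left out here, so *Hbb-y* is not set against all adult β-globin. That copy was at 1979 ± 1046 CPM per kilobase under the wildtype label and 1348 ± 96.2 under the mutant label (SD, n = 3). In the α cluster, *Hba-x* over *Hba-a1* was −4.09, −5.12 and −4.76 on the log2 scale in the wildtype libraries and −4.50, −4.70 and −4.51 in the mutant libraries. Wildtype 1 had the highest value of both ratios, wildtype B and C had the lowest, and the mutant libraries lay between them. For the much rarer *Hbb-bh1* over *Hbb-bt* the log2 ratio was −4.80, −6.60 and −6.15 in wildtype 1, B and C and −6.15, −5.91 and −6.23 in the mutant libraries. Wildtype 1 was again the highest, but mutant 3 lay below wildtype C. Within the embryonic set, the log2 ratio of *Hbb-y* to *Hbb-bh1* was 6.20 to 6.84 under the wildtype label and 6.29 to 6.86 under the mutant label, with no separation.

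The adult chains did not keep a fixed proportion either. *Hba-a1* per kilobase was 2.88-fold above *Hbb-bt* in wildtype 1 and 1.80- to 2.06-fold above it in the other libraries. With *Hba-a2* and *Hbb-bs* included, the α to β ratio was 2.97 in wildtype 1 and 1.80 to 2.103 in the others. How reads that fit both copies of a pair were counted is not given, so an uncertainty in these ratios remains. Within the pairs of near-identical copies the log2 ratios were almost constant, at 0.38 to 0.39 for *Hba-a2* over *Hba-a1* and 0.32 to 0.39 for *Hbb-bs* over *Hbb-bt*. As the copies share many of their 50-base stretches, this constancy is no separate observation.

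**Figure D2:**
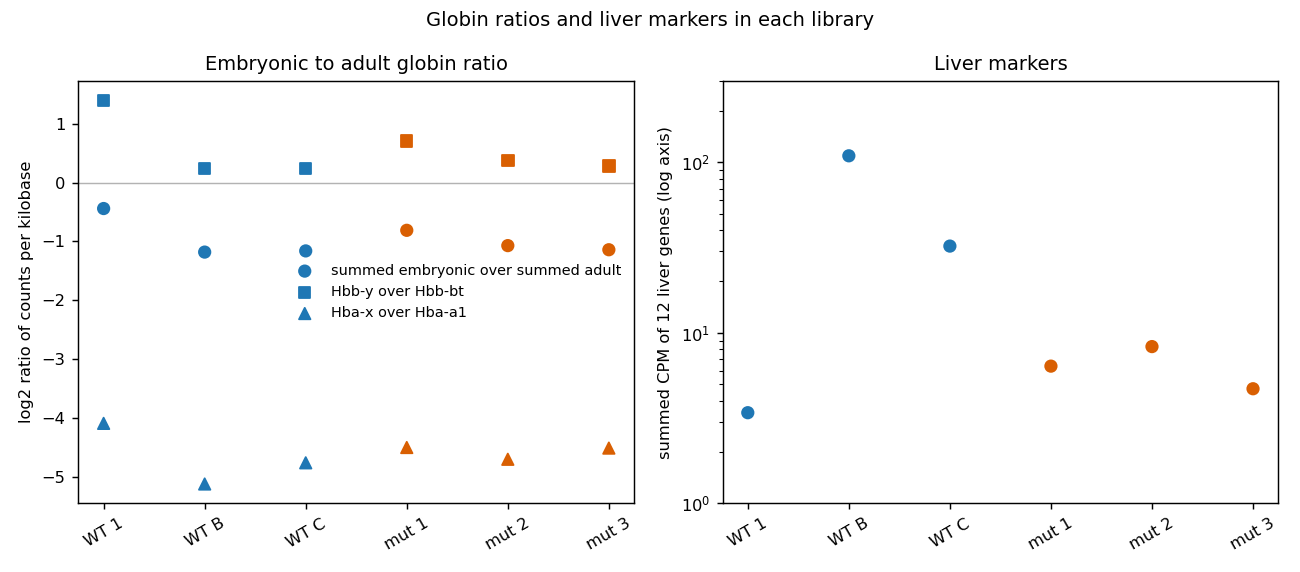
Left, log2 ratio of counts per kilobase in each library for the summed embryonic over the summed adult globins (circles), *Hbb-y* over *Hbb-bt* (squares) and *Hba-x* over *Hba-a1* (triangles), in libraries labelled wildtype (blue) and mutant (orange). Right, summed CPM of 12 liver genes on a log axis, from 3.40 in wildtype 1 to 109 in wildtype B. Wildtype 1 has the highest ratios and the lowest liver level.

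Genes of the liver moved with the adult globins across the wildtype libraries. The summed level of 12 liver markers was 3.40, 109 and 32.3 CPM in wildtype 1, B and C, and 6.37, 8.30 and 4.69 CPM in the mutant libraries. Albumin (*Alb*) was at 0.337, 32.6 and 10.5 CPM against 0.550, 1.57 and 0.0796 CPM, and α-fetoprotein (*Afp*) at 0.540, 49.9 and 10.9 CPM against 1.12, 1.92 and 0.239 CPM. *Fga* and *Hnf4a* had 0 counts in all mutant libraries and, together with *Fgb* and *Serpina1a*, 0 counts in wildtype 1. The groups overlapped for all 12, and 10 of the 12 had an unadjusted p under 0.05 on the lower side, none passing the adjusted test (lowest adjusted p = 0.194 by edgeR). Over all genes tested, 7.83% had such a p on the lower side and 8.23% on the higher. For 4 of the 12, no mutant library had more than 3 counts. Markers of heart muscle were lower under the mutant label too, at a summed 21767, 23185 and 29842 CPM against 18421, 15942 and 21016 CPM, 7 of 10 with an unadjusted p under 0.05 and a median log2 fold change of −0.47. Markers of endothelium had a median log2 fold change of −0.04, 2 of 10 with an unadjusted p under 0.05 on the higher side, with summed levels of 1043, 1310 and 1377 against 1144, 1130 and 1255 CPM. The part of the liver and heart muscle signals in the globin values was not tested.

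The 4 genes that are not globins serve the red cell membrane, heme synthesis and carbon dioxide transport. *Slc4a1* (ENSMUSG00000006574, mm10 chr11:102348824-102366203, minus strand), the anion exchanger band 3 of the red cell membrane, was at 14.4, 22.3 and 20.5 CPM under the wildtype label and at 11.3, 11.7 and 9.31 CPM under the mutant label. The groups did not overlap. It had the largest fold change of the 9 genes, −0.83 on the log2 scale (SE 0.17, unadjusted p = 0.000536), and still an adjusted p of 0.155 by edgeR. Among the wildtype libraries wildtype 1 was the lowest, as it was for every other of the 9 genes but *Hbb-bh1*.

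*Alas2* (ENSMUSG00000025270, mm10 chrX:150547375-150570638, plus strand), the red cell form of the first enzyme of heme synthesis, was at 14.8, 29.0 and 25.6 CPM in wildtype 1, B and C and at 14.5, 16.4 and 16.5 CPM in the mutant libraries. Only wildtype B and C stood apart, and wildtype 1 lay among the mutant libraries. Its log2 fold change was −0.55 (SE 0.21, unadjusted p = 0.0230, adjusted p = 0.253 by edgeR). Per kilobase, the ratio of *Alas2* to the adult globins was between 0.00199 and 0.00246 in the 6 libraries, and its ratio to the embryonic globins was between 0.00335 and 0.00476.

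*Car2* (ENSMUSG00000027562, mm10 chr3:14886273-14900770, plus strand), a carbonic anhydrase of red cells that other tissues also make, was at 8.23, 14.1 and 12.3 CPM under the wildtype label and at 6.40, 7.18 and 8.09 CPM under the mutant label. The groups did not overlap, though wildtype 1 and mutant 3 were nearly equal. The log2 fold change was −0.68 (SE 0.20, unadjusted p = 0.00561, adjusted p = 0.196 by edgeR). *Epb42* (ENSMUSG00000023216, mm10 chr2:121017891-121037072, minus strand), protein 4.2, which links band 3 to the membrane skeleton, had only 34 to 61 counts in a library. It was at 0.765, 1.16 and 1.42 CPM against 1.12, 1.63 and 1.03 CPM, with full overlap. Its log2 fold change of 0.19 (SE 0.33, unadjusted p = 0.577, adjusted p = 0.821 by edgeR) was smaller than its SE.

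Counted over the 9 genes, 0 passed the adjusted test, where 6 of all 28157 genes tested (0.0213%) did. An unadjusted p under 0.05 with a lower value under the mutant label was found for 7 of the 9 genes, against 7.83% of all genes tested, and with a higher value for 0 of the 9, against 8.23%. The groups did not overlap with every mutant library lower for 5 of the 9 genes, against 8.94% of all genes. The median log2 fold change of the 9 was −0.56, beside 0.01 over all genes tested. Red cells make all 9, so the genes are not independent of each other. In bulk tissue, fewer red cells and less of these transcripts per red cell cannot be told apart.

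The call changed with the test used and without wildtype 1. By DESeq2's Wald test, which called 742 genes or 4.05% of the 18327 genes that received an adjusted p and 1.81% on the lower side, 5 of the 9 passed, and all of these were lower. They were *Slc4a1* (adjusted p = 0.00241), *Hbb-bh1* (0.0102), *Hbb-y* (0.0159), *Hba-x* (0.0231) and *Car2* (0.0447). Over all alternative settings the adjusted p of these 5 genes by edgeR, limma or DESeq2 ranged up to 0.583 (*Slc4a1*, *Hbb-bh1*), 0.642 (*Hbb-y*, *Hba-x*) and 0.723 (*Car2*). These are the 5 genes whose groups did not overlap. Without wildtype 1, edgeR called 2593 genes, 9.45% of those tested and 5.3% on the lower side, and with them 8 of the 9, all but *Epb42*.

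Leaving out wildtype libraries restates the levels given above, since wildtype 1 lay below every mutant library for both adult globins and above every one for the embryonic globins. The signs without wildtype B and C follow from that choice of libraries and are no further evidence of a difference. Without wildtype 1 the log2 fold changes were −0.44 (*Hba-x*), −0.63 (*Hbb-bh1*) and −0.69 (*Hbb-y*) for the embryonic genes and −0.81 (*Hba-a1*) and −0.91 (*Hbb-bt*) for the adult genes. Without wildtype B and C, the 2 libraries with the highest liver levels, they were −0.33, −0.58 and −0.23 for the embryonic genes but 0.15 (SE 0.09, adjusted p = 0.546 by edgeR) for *Hba-a1* and 0.71 (SE 0.10, adjusted p = 0.301) for *Hbb-bt*. The embryonic globins were below 0 in both cases, and the adult globins were not. *Alas2* went with the adult genes, from −0.79 to 0.10, while *Slc4a1* (−0.99 and −0.42) and *Car2* (−0.87 and −0.19) had the same sign in both. None of the 9 passed the test without wildtype B and C, where a single wildtype library is left and is assumed to vary like the others.

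**Figure D3:**
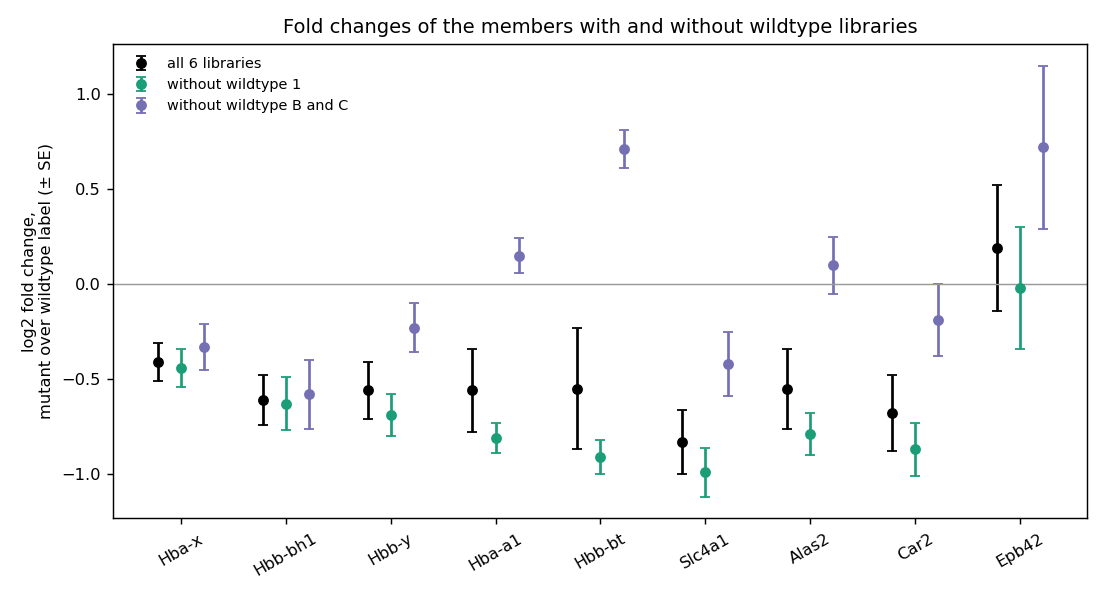
Log2 fold change, mutant over wildtype label, with its SE as a bar for each of the 9 genes, from all 6 libraries (black), without wildtype 1 (green) and without wildtype B and C (purple), by edgeR's quasi-likelihood fit. The embryonic globins are below 0 in all 3 cases, and *Hba-a1*, *Hbb-bt* and *Alas2* are above 0 without wildtype B and C, *Hbb-bt* at 0.71.

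The profile of a gene over the 6 libraries, its log2 CPM minus its mean, was compared with that of each globin set. This was done for the 16655 genes whose mean level reached 1 CPM. The mean profile of the embryonic globins was 0.13, 0.30 and 0.36 in wildtype 1, B and C and −0.22, −0.27 and −0.29 in mutant 1, 2 and 3. Closest to it, by the root mean square difference over the 6 libraries, were *Gm15516*, a processed pseudogene (0.0418), *Cmss1* (0.0424), *Ccdc90b* (0.0456), *Gm22774*, annotated as a miRNA (0.0641), and *Fam221b* (0.0656). None of these belongs to the lists of red cell genes examined here. The members *Hba-x*, *Hbb-y* and *Hbb-bh1* were themselves at 0.102, 0.136 and 0.137 from their mean profile, farther than the 5 genes named.

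The mean profile of the adult globins was −0.64, 0.75 and 0.54 in the wildtype libraries and −0.26, −0.22 and −0.17 in the mutant libraries. The 5 closest genes were *1700007L15Rik*, a long non-coding RNA (0.0965), *Rps2-ps4*, a processed pseudogene (0.114), *Hba-a2* (0.120), *Apela* (0.127) and *Irgm2* (0.130), and *Hbb-bs* came 7th at 0.140. *Hba-a2* shared 89.3% of its 50-base stretches with *Hba-a1*, and *Hbb-bs* shared 53.2% with *Hbb-bt*. As *Hba-a1* and *Hbb-bt* form this profile, the closeness of their copies is no separate observation. *Alas2* was at 0.144 from this profile, the nearest of the members that are not globins, and at 0.250 from the embryonic one. *Slc4a1* was at 0.213 from the embryonic profile and at 0.329 from the adult one. By rank among the 16655 genes it was 3473rd from the embryonic and 1222nd from the adult profile, the other way round. The embryonic profile spans less, −0.29 to 0.36 against −0.64 to 0.75, so distances to the 2 profiles are not on 1 scale. Closeness of this kind over 6 libraries is a description only.

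Around the 9 genes, the other globins and 5 lists of red cell genes were examined in the fit of all genes. None of their genes passed edgeR's adjusted test. DESeq2's Wald test called 5 of them, lower for *Tmod1* (adjusted p = 0.0259), *Hemgn* (0.0367) and *Ermap* (0.0492) and higher for *Aqp1* (0.0127) and *Ppox* (0.0461). These were 2 lower and 1 higher of 17 membrane and skeleton genes, 1 higher of 14 heme and iron genes, and 1 lower of 13 enzyme and maturation genes. The other lists had none. Over all genes with an adjusted p, the same test called 4.05%, and 1.81% on the lower side. The counts at an unadjusted p under 0.05 below stand beside 7.83% of all genes tested on the lower and 8.23% on the higher side. Of the list of other globins and the α-globin chaperone, 5 of 7 genes could be tested, all with a fold change below 0 (median −0.57), and 2 of them, *Hba-a2* and *Hbb-bh0*, with an unadjusted p under 0.05, on the lower side. *Hba-a2* and *Hbb-bs* of this list share stretches with *Hba-a1* and *Hbb-bt*. *Hbb-bh0*, annotated as an unprocessed pseudogene of the β cluster, had only 22 to 65 counts in a library. Its log2 fold change was −1.08 (SE 0.33, adjusted p = 0.203 by edgeR), at 0.945, 1.57 and 1.54 CPM against 0.5997, 0.587 and 0.716 CPM. *Hbq1b*, of the α cluster, had a log2 fold change of −0.84 (SE 0.45, adjusted p = 0.377 by edgeR) and was under 1 CPM in every library. In both genes the mutant libraries were all below the wildtype ones, as in 8.94% of all genes tested.

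Genes of the red cell membrane and skeleton had a median log2 fold change of −0.23 over 17 of 18 genes tested, 5 with an unadjusted p under 0.05 on the lower side and 2 on the higher. The most abundant was *Tmod1*, tropomodulin, which caps actin filaments in red cells and also in muscle, at 156, 163 and 201 CPM against 128, 110.4 and 137 CPM (log2 fold change −0.47, SE 0.12, adjusted p = 0.194 by edgeR). *Aqp1*, the water channel of red cells and of endothelium, went the other way, at 84.8, 117 and 82.6 CPM against 145, 146 and 129.5 CPM (log2 fold change 0.56, SE 0.14, adjusted p = 0.181 by edgeR). *Epb41* (0.07, SE 0.11) and *Sptb* (−0.19, SE 0.11), protein 4.1 and β-spectrin, overlapped between the groups. Muscle and endothelium also use several genes of this list.

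For heme synthesis and iron uptake the median was −0.19 over 14 genes, 4 with an unadjusted p under 0.05 on the lower side and 1 on the higher. *Tfrc*, the transferrin receptor, was at 99.9, 81.8 and 87.3 CPM against 72.0, 69.8 and 74.6 CPM (log2 fold change −0.31, SE 0.10, adjusted p = 0.220 by edgeR). *Fech*, ferrochelatase, which puts iron into heme, was at 55.6, 58.2 and 65.3 CPM against 46.5, 47.7 and 51.5 CPM (log2 fold change −0.30, SE 0.10, adjusted p = 0.224 by edgeR). Neither gene overlapped between the groups, and both are used by dividing or respiring cells in general. Of the 14 genes, 3 were lower in every mutant library and 3 were higher in every one, beside 2518 and 3013 of all 28157 genes tested. *Abcg2*, a porphyrin exporter, had a log2 fold change of −0.23 (SE 0.11) and *Urod*, an enzyme in the middle of the pathway, of −0.11 (SE 0.11), with overlap. These 4 fold changes were smaller than that of *Alas2*, the red cell gene of the same pathway.

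Red cell enzymes and genes of late maturation had a median of −0.19 over 13 of 14 genes, 1 with an unadjusted p under 0.05 on each side, and 0 whose groups did not overlap, where 5531 of all 28157 genes tested had groups that did not. *Prdx2*, an abundant peroxidase of red cells, was at 264, 318 and 302 CPM against 274, 249.6 and 250.3 CPM (log2 fold change −0.19, SE 0.11, adjusted p = 0.390 by edgeR). The log2 fold changes of *Xpo7* (−0.10, SE 0.09), *Bnip3l* (−0.10, SE 0.10) and *Cat* (−0.09, SE 0.09) were about the size of their SEs.

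Transcription factors and the receptor of the red cell lineage had a median of 0.03 over 10 genes, 1 with an unadjusted p under 0.05 on the lower side and 3 on the higher. By log2 fold change, the most abundant were *Ldb1* (0.24, SE 0.11), *Zfpm1* (0.46, SE 0.15), *Tal1* (0.26, SE 0.12) and *Cbfa2t3* (0.02, SE 0.14), with adjusted p of 0.303, 0.224, 0.307 and 0.966 by edgeR. All 4 are also made outside the red cell lineage. The factors that read the GATAA and CACCC letters in red cells, named here for that reason after their values were seen, had few reads. *Gata1* was at 0.360, 0.891 and 0.647 CPM against 0.325, 0.267 and 0.451 CPM (log2 fold change −0.86, SE 0.47), and *Klf1* at 0.585, 1.18 and 1.32 CPM against 1.27, 0.800 and 0.424 CPM (log2 fold change −0.29, SE 0.45), with overlap in both. In the same list *Nfe2* (log2 fold change −0.86, SE 0.29, adjusted p = 0.228 by edgeR) and *Gfi1b* (−1.26, SE 0.63, adjusted p = 0.347), likewise named after their values were seen, were lower in every mutant library. *Nfe2* was at 1.64, 2.87 and 1.97 CPM against 1.32, 1.31 and 0.928 CPM. *Gfi1b* had only 2 to 14 counts in a library and was at no more than 0.339 CPM. These 2 of the 10 genes were lower in every mutant library, beside 8.94% of all genes tested. *Tal1* was higher in every mutant library, at 16.3, 20.6 and 19.5 CPM against 23.6, 21.6 and 22.3 CPM.

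The factors that switch the embryonic to the adult globin genes, or mark that switch, had a median of 0.10 over 8 genes, 0 with an unadjusted p under 0.05 on the lower side and 2 on the higher. The most abundant had log2 fold changes of 0.03 (*Chd4*, SE 0.11), 0.11 (*Igf2bp1*, SE 0.09), −0.07 (*Hbs1l*, SE 0.09) and 0.21 (*Zbtb7a*, SE 0.09). Of these, *Zbtb7a* was higher in every mutant library, at 27.8, 30.3 and 28.4 CPM against 33.2, 34.2 and 32.9 CPM (adjusted p = 0.292 by edgeR). With scaling by library size only, the median over all genes moved from 0.01 to 0.11, and the medians were −0.45 for the embryonic globins, −0.44 for the adult globins and 0.21 for the switching factors.

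**Figure D4:**
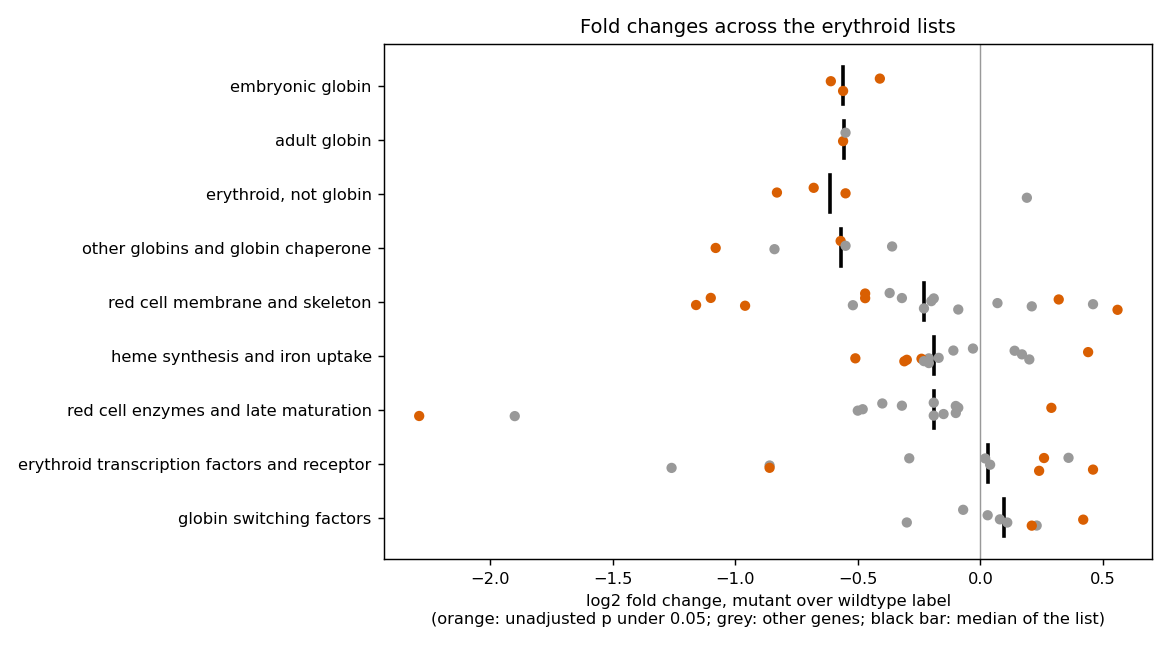
Log2 fold change, mutant over wildtype label (horizontal axis), of each tested gene of the embryonic, adult and other members and of the 6 lists of red cell genes (rows), in orange where the unadjusted p is under 0.05, with the median of each row as a black bar. The medians are −0.56 for the embryonic and −0.55 for the adult globins and 0.03 for the transcription factors.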

How the data were processed

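Bulk RNA-Seq of 6 pools of E13.5 mouse OFT was analysed, 3 labelled mutant and 3 labelled wildtype. The authors depleted the total RNA of ribosomal RNA, made strand-specific libraries, read 50 bases from each end, trimmed the reads, aligned them to mm10 with TopHat 2.1.0 and counted them on exons with GenomicAlignments. The deposited values are the resulting counts of each gene, as whole numbers that were not normalized. The annotation release, the strand setting and the treatment of reads that fit several genes are not given in the sources used here, so reads of overlapping or duplicated genes may be split between them. Of the wildtype columns, 2 could be given to their group but not to a replicate number.

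Symbols, positions and exon lengths came from GENCODE vM21 on mm10 (28723 of the 28777 identifiers), promoters from RefSeq on GRCm38.p6. Only genes with more than 5 reads summed over the libraries were kept. They were scaled by TMM and tested with edgeR 4.0.16 (quasi-likelihood, Benjamini-Hochberg, adjusted p of at most 0.05) in R 4.3.3. The alternatives were DESeq2 1.42.0, limma 3.58.1 (voom), other scalings and filters, replicate blocks, an adjusted p of at most 0.01, and libraries left out. Leaving out wildtype B and C together was chosen after seeing the data. The code was tested on simulated counts. Fold changes are log2, mutant over wildtype label, and SD is over the 3 libraries of a group. Errors cover counting and the spread between pools, with any difference in dissection between them, but not a difference in dissection shared by a whole group.

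The 9 genes and the gene lists were chosen with earlier results of these data known. Besides the 9, the rule named up to 4 genes of the highest mean CPM and any called gene per red cell list, up to 2 per list of other cell types, the 5 genes closest to each globin profile (log2 CPM with a prior count of 2, less its mean), *Notch1* and *Nos3*. *Fga*, *Fgb*, *Serpina1a*, *Hnf4a*, *Hbb-bh0*, *Hbq1b*, *Hemgn*, *Ermap*, *Ppox*, *Gata1*, *Klf1*, *Nfe2* and *Gfi1b* were added to the named genes with their values known.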

Additional observations from a re-analysis of the deposited data

How the results depend on the processing

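With all 6 libraries edgeR called 6 genes and 0 of the 9. The number of genes was 742 by DESeq2's Wald test, 2 at an adjusted p of at most 0.01, and 2 without wildtype B and C, and it ranged from 1 to 2593 with single libraries left out. DESeq2 called 5 of the 9, and with single libraries left out between 0 and 8 of the 9 were called, the 8 without wildtype 1 and 0 in each of the other 5 cases. The other scalings, filters and limma's voom called 0 of the 9. The difference of the log2 embryonic to adult ratio, −0.08 with all libraries, was −0.56 without wildtype B and C and −0.20 to 0.16 with single libraries left out. The sign turned without wildtype B and C for *Hba-a1* (0.15), *Hbb-bt* (0.71) and *Alas2* (0.10), and for *Epb42* without wildtype 1 (−0.02) or without mutant 2 (−0.04). With single libraries left out *Epb42* ranged to 0.39, and without wildtype B and C it was 0.72. The cause was not tested. Of the other log2 fold changes of the 9 under the alternatives, 120 kept their sign and their side of the threshold and 19 kept their sign and passed it.

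The replicate numbers do not come with a stated litter or day, and their pairs deviated together with r = 0.096, 0.159 and 0.42 by the titles, not all above 0.1. With a block on these replicate numbers 1577 genes and 6 of the 9 were called (*Hba-x*, *Hbb-bh1*, *Hbb-y*, *Slc4a1*, *Alas2* and *Car2*, where 2.42% of all genes were called lower). With a block on the numbers of the descriptions, which swap the last 2 wildtype libraries, 83 genes and 0 of the 9 were called. Wildtype 1 correlated best with mutant 2 (r = 0.277) and not with its own number.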

Other observations

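Genes of megakaryocytes and platelets, the relatives of red cells that make clotting platelets, had a median log2 fold change of −0.72 over 10 genes. Of the 10, 4 had an unadjusted p under 0.05 on the lower side, beside 7.83% of all genes, and 0 passed edgeR's adjusted test (lowest adjusted p = 0.234). Their summed level was 13.0, 25.8 and 22.2 CPM in wildtype 1, B and C and 15.3, 13.4 and 16.3 CPM in the mutant libraries. Wildtype 1 was thus the lowest of all, as for the adult globins. *Pf4*, a chemokine of platelet granules, was at 3.37, 8.09 and 5.61 CPM against 2.77, 3.20 and 4.67 CPM (log2 fold change −0.68, SE 0.30, adjusted p = 0.306 by edgeR). *Itga2b*, an integrin of the same cells, was at 3.19, 7.23 and 8.38 CPM against 6.82, 5.55 and 5.78 CPM (log2 fold change −0.04, SE 0.29). Without wildtype B and C the median of the list was −0.03.

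Genes of macrophages and other leukocytes had a median of −0.04 over 12 genes, 1 with an unadjusted p under 0.05 on each side, and a summed level of 140.2, 206 and 183 CPM against 139, 156 and 164 CPM. *Csf1r*, the receptor that macrophages need, was at 26.8, 44.0 and 34.2 CPM against 29.0, 34.4 and 33.7 CPM, and *Mrc1*, a mannose receptor, had a log2 fold change of −0.15 (SE 0.17). Genes of yolk sac endoderm, the layer beside which primitive red cells arise, were low, with a summed level of 6.59, 10.8 and 7.03 CPM against 5.72, 5.28 and 5.89 CPM over 6 of 8 genes, and 2 of the 6 had an unadjusted p under 0.05 on the lower side. Over all genes tested, 7.83% had such a p on the lower side and 8.23% on the higher. The most abundant, *Cubn*, had a log2 fold change of 0.04 (SE 0.24). *Ttr*, which the liver list also holds, had −1.35 (SE 0.53, adjusted p = 0.264 by edgeR).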
